A study of Mus musculus with 15 samples.

Results

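The Hox gene clusters are the 4 chromosomal blocks of homeobox genes, HoxA on chromosome 6, HoxB on chromosome 11, HoxC on chromosome 15 and HoxD on chromosome 2. Chromatin accessibility was read here as ATAC-seq counts in merged peaks, and a Hox peak is any peak that overlapped or lay within 10 kb of the gene record of 1 of 38 Hox genes. Of 67945 peaks in the table, 10 were Hox peaks: 5 in HoxA, 2 in HoxB, 2 in HoxC and 1 in HoxD.

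In ATAC-seq a transposase cuts open DNA and tags the ends for sequencing, and a higher read count in a region stands for a more accessible region. The 13 libraries were each made from a different clone of mouse pancreatic tumour cells that had been grown under the skin of C57BL/6 mice. From each tumour 50000 tumour cells were sorted, 3 weeks after implantation and with no treatment. By the label of their T cell phenotype, 6 clones were T cell high (2838c3, 6421c2, 6499c4, 6555c3, 6620c1 and 7160c2) and 7 were T cell low (6694c2, 6556c3, 6499c3, 6422c1, 6419c5, 6419c1 and 2699c4). The series lists 15 samples, and the 2 T cell intermediate samples are not analysed here. Each clone was 1 library, so the spread within a group is the spread between clones, tumours and libraries together. The labels used here name neither the clones' genotype nor the tumours they came from, and clones whose names share a number (6419c5 and 6419c1, 6499c4 and 6499c3) are treated as separate clones.

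Hox genes encode transcription factors that give cells along the head-to-tail axis their regional identity. Their order along the chromosome follows the order in which they are used in the embryo, with low paralogue numbers acting anteriorly and high numbers posteriorly. In cells that do not use them, the clusters are a classic target of Polycomb repressors, while Trithorax proteins keep active Hox genes active. TALE homeobox proteins such as Meis bind DNA together with Hox proteins, and Cdx factors and retinoic acid receptors switch the clusters on. In gut-derived tissue, Hox genes mark position along the digestive tract.

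Total counts in peaks per library ran between 968296 (T cell high clone 7160c2) and 7369228 (T cell low clone 6419c1). Values are given as CPM, the counts in a peak scaled to the library's effective size after TMM normalization, which matches the bulk of peaks between libraries. A count of 0 allows up to 3 counts, which is 0.428 to 2.99 CPM depending on the library. Of 12 epithelial marker genes 10 had a peak within 1 kb of a gene end, against 5 of 14 leukocyte, 3 of 14 fibroblast and pericyte, 3 of 12 skin and muscle and 1 of 12 endothelial markers. The summed level of the 3 fibroblast peaks was 30.2 to 52.2 CPM in T cell high clones and 30.2 to 54.6 CPM in T cell low clones. The 5 leukocyte peaks summed to 45.95 to 95.03 CPM in T cell high clones. In T cell low clones their sum was 64.28 to 104.1 CPM. The T cell markers Cd3e and Cd8a had no peak at a gene end. Nor did the endothelial markers Pecam1 and Cdh5 and the fibroblast markers Pdgfra and Pdgfrb. Other markers did: Cd53 (leukocytes) averaged 26.5 CPM in T cell high clones and 38.7 CPM in T cell low clones. Col1a1 (fibroblasts) averaged 27.0 CPM, and Sox17 (endothelial cells) ran between 0 and 50.9 CPM among T cell high clones. The share of other cell types among the sorted cells was not tested.

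The clusters were poor in peaks for their gene content. Within the 485.4 kb that the 4 clusters span, 9 peaks were listed, or 1.85 per 100 kb, against 2.66 per 100 kb over the genome and 4.26 per 100 kb in the 2 Mb on either side of the clusters. The same spans held 7.83 genes per 100 kb, against 0.857 over the genome. HoxA came closest to its surroundings, with 4.06 peaks per 100 kb inside the cluster and 4.3 in its flanks. HoxD had 1.03 inside and 3.07 in its flanks, HoxB had 1.15 inside and 5.43 in its flanks, and HoxC had 1.73 inside and 4.25 in its flanks.

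Long stretches of the clusters held no peak at all. In HoxB the longest was 84.5 kb and took in all of Hoxb9 and Hoxb13. In HoxC it was 66.1 kb and took in Hoxc9, Hoxc10, Hoxc11, Hoxc12 and Hoxc13, the trunk and tail end of that cluster. In HoxD it was 62.5 kb, with Hoxd8, Hoxd4, Hoxd3 and Hoxd1, and in HoxA 33.5 kb, with Hoxa4, Hoxa5 and Hoxa6. The nearest peaks outside the clusters were mostly higher than those inside. The peak nearest to the anterior edge of HoxA lay 149 kb away at Skap2, an adaptor protein gene, and averaged 81.5 CPM. The peaks on either side of HoxD lay 88.7 kb away at Lnpk, with 53.8 CPM, and 60.3 kb away at Mtx2, with 26.4 CPM. Those around HoxC lay 102 kb and 126 kb away, with 11.1 and 14.3 CPM, and the nearest to HoxB lay 52.7 kb from Hoxb13, with 21.95 CPM. Low peaks were found outside too, at 5.60 CPM 44.8 kb beyond Hoxa13 and at 3.75 CPM 358 kb beyond Hoxb1. Evx1 and Evx2, the homeobox genes that border HoxA and HoxD, had no peak within 1 kb of a gene end.

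**Figure D1:**
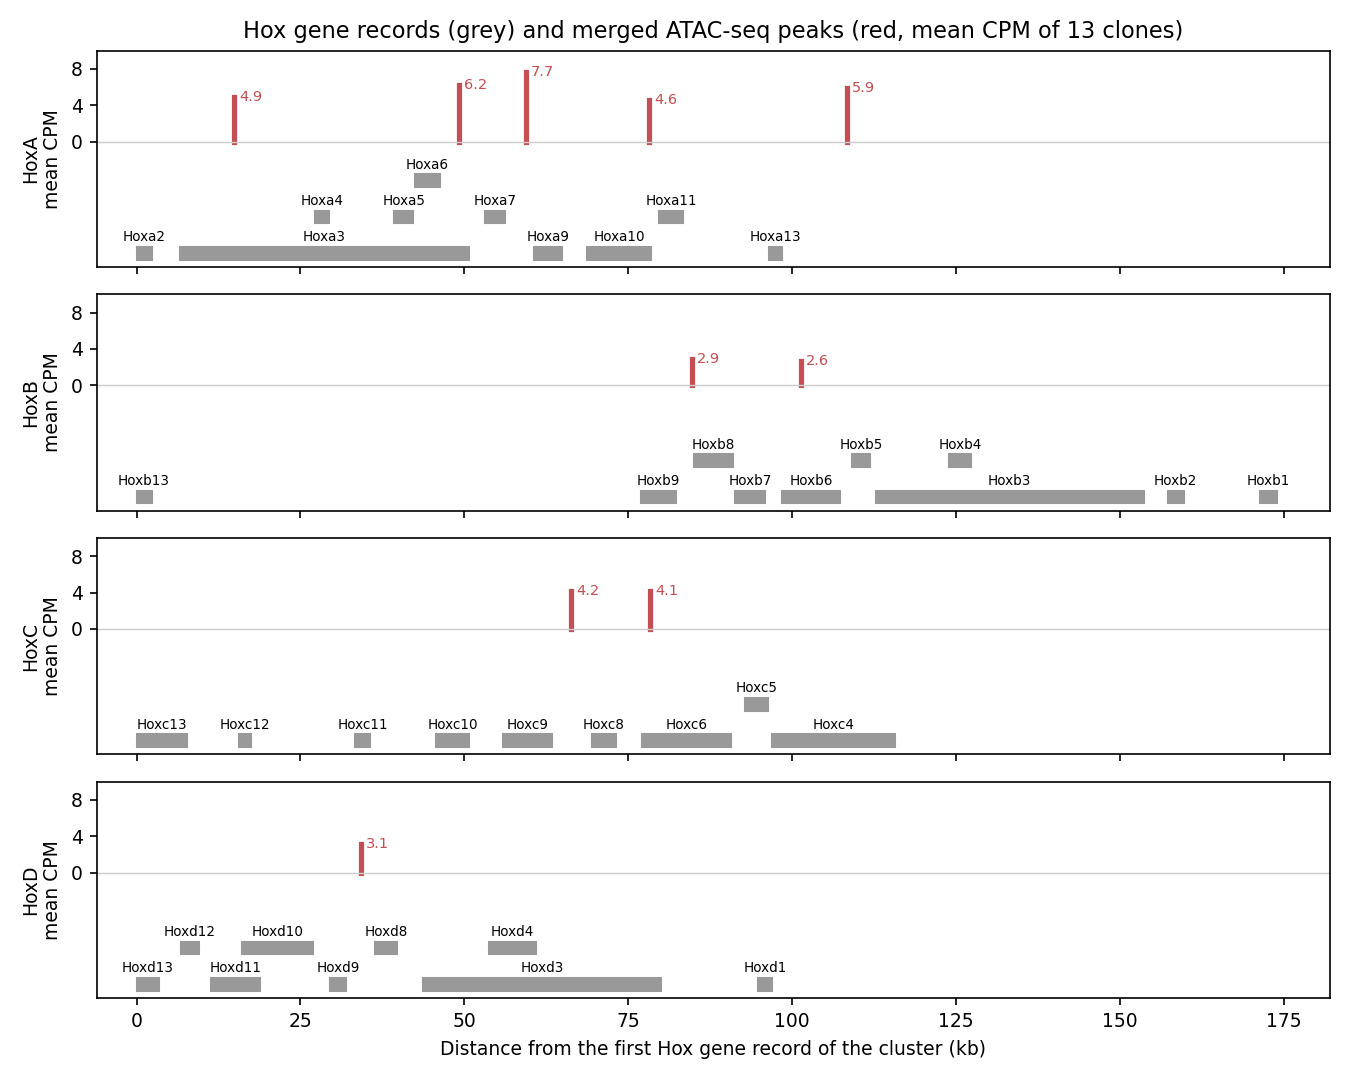
Each panel is 1 Hox cluster, drawn by distance in kb from its first Hox gene record. Grey bars are gene records, and each red line is a merged peak whose height is its mean CPM over 13 clones. The 5 HoxA peaks stand between 4.56 and 7.67 CPM, while HoxB, HoxC and HoxD have 2, 2 and 1 peaks between 2.62 and 4.18 CPM.

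By paralogue number, peaks lay most often near the genes of groups 6 to 9, where 1 peak can count for several neighbouring genes. Of the 15 genes of paralogue groups 4 to 8, 10 had a peak within 10 kb, and of the 16 genes of groups 9 to 13, 8 did. Of the 7 genes of groups 1 to 3, 2 did, Hoxa3 and Hoxd3. Posterior of group 9 the share was 2 of 3 genes in group 10, 1 of 3 in group 11 and 1 of 4 in group 13. No gene of groups 1, 2, 4 or 12 had a peak within 10 kb, while all 3 genes of group 6 (Hoxa6, Hoxb6 and Hoxc6), both of group 7, all 3 of group 8 and all 4 of group 9 had 1. A peak within 10 kb was found for 62.3% of other developmental homeobox genes and 74.6% of all protein-coding genes. In all, 20 of the 38 Hox genes (52.6%) had a peak within 10 kb and 18 had none. The record itself was overlapped in 4 genes: Hoxa3 by 2 peaks and Hoxa10, Hoxb6 and Hoxc6 by 1 each. Hoxb1 lay farthest from any peak, at 69.9 kb, followed by Hoxd1 at 60.3 kb and Hoxc13 at 58.4 kb. Summed over the peaks assigned to each band, the clones' median was 20.9 CPM for groups 9 to 13, 11.8 CPM for groups 4 to 8 and 9.33 CPM for groups 1 to 3. In the same order these sums rest on 4, 4 and 2 peaks, so they do not compare levels per peak. These bands share libraries, and the anterior sum comes from Hoxa3 alone.

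Peaks were rare at Hox gene ends. Of the 38 Hox genes, 3 (7.89%) had a peak within 1 kb of either end of the gene record: Hoxa9, Hoxa10 and Hoxb8. The share was 18 of 53 (34.0%) for other developmental homeobox genes, 18 of 20 (90.0%) for Polycomb genes, 18 of 23 (78.3%) for genes that neighbour the clusters and 12451 of 21887 (56.9%) for all protein-coding genes. Where other homeobox genes had a gene-end peak, it could be high: Irx5 averaged 93.5 CPM, Onecut2 84.3 CPM, Irx3 82.6 CPM, Dlx2 33.6 CPM and Pdx1, the pancreas and duodenum regulator, 33.0 CPM. The highest of the Hox gene-end peaks, at Hoxa9, averaged 7.67 CPM. These shares are descriptions of gene lists and carry no test.

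The start sites gave the same picture with the strand known. RefSeq promoter sequence of assembly GRCm38.p6 (the coordinates of mm10) was held for 22 of the 38 genes, with 24 start sites, and a promoter window ran from 250 bases before to 50 bases after the start. Of the 24 Hox windows 1 (4.17%) overlapped a peak, against 15 of 47 (31.9%) windows of other homeobox genes and 11422 of 21263 (53.7%) of all protein-coding windows. The Hox window inside a peak belonged to Hoxa10, a gene needed for patterning of the uterus and the hind part of the trunk. The following sequences are shown because they set that promoter against Hox promoters outside any peak. Each is the 250 bases before the start, 5′ to 3′ on the gene's strand, and capitals mark the bases that lie inside a merged peak.
Hoxa10 (chr6:52240855-52241104, minus strand): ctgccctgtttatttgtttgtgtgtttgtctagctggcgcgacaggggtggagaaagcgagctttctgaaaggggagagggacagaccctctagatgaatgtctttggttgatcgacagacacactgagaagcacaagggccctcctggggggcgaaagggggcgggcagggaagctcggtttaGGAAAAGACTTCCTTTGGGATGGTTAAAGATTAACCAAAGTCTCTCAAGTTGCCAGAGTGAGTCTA
Hoxa10, inner start (chr6:52234940-52235189, minus strand): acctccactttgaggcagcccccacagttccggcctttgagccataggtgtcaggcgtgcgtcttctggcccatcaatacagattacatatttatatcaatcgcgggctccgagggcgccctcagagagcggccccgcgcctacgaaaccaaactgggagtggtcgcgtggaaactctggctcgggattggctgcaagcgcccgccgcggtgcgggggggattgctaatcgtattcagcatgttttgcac
Hoxa3 (chr6:52213068-52213317, minus strand): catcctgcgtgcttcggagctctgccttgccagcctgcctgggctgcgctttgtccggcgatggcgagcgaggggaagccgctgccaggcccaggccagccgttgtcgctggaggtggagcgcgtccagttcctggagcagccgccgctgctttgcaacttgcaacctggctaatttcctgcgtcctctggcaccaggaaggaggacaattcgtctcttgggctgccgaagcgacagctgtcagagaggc
Hoxa13 (chr6:52260881-52261130, minus strand): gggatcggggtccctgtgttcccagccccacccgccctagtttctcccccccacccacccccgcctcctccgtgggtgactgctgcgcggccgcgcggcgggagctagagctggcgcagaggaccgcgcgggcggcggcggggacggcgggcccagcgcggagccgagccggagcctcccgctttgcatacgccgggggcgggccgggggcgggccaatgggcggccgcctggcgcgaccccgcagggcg
Hoxb8 (chr11:96281655-96281904, plus strand): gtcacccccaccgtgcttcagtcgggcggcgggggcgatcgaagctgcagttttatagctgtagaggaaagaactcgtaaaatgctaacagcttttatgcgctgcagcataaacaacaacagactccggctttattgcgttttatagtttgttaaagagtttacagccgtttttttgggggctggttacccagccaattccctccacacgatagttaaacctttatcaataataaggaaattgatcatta
Hoxd13 (chr2:74667975-74668224, plus strand): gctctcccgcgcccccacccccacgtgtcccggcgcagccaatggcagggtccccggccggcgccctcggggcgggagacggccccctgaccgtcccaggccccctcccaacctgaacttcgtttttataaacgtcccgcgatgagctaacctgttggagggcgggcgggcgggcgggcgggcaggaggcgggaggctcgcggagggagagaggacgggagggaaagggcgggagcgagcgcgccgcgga

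The Hoxa10 peak covered the last 66 of the 250 bases before the outer start, and this promoter held 7 CG dinucleotides. The inner Hoxa10 start lay 5252 bp from the nearest peak and its promoter held 20 CG dinucleotides. Hoxa13 and Hoxd13, which pattern the digits and the genital tubercle, had the most CG-rich of the printed promoters, with 35 and 31, and lay 9525 and 34038 bp from the nearest peak. The Hoxa3 start lay 1159 bp from a peak and had 18 CG dinucleotides, and the Hoxb8 start lay 2808 bp away and had 12.

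Hox promoter windows held slightly more CG than all windows, and CG went with accessibility elsewhere in these libraries. The median count in the 250 bases was 12.5 for Hox windows, 15 for other homeobox windows and 10 for all windows. Of the 24 Hox windows 10 came from HoxA and 10 from HoxD, but only 3 from HoxB and 1 from HoxC. Among all protein-coding windows, 11.4% of those with at most 4 CG dinucleotides overlapped a peak, rising through 46.7% at 5 to 9 and 77.1% at 10 to 14 to 86.0% at 15 to 19. Of windows with at least 10 CG dinucleotides, 0 of 15 Hox windows overlapped a peak, against 13 of 36 (36.1%) windows of other homeobox genes and 8999 of 10650 (84.5%) of all windows. Windows of a cluster lie in the same stretch of chromatin and some belong to 1 gene, so they are not replicates. Of 3 short motifs searched on both strands of the 250 bases, TATAAA (the TATA box) was in 4 of 24 Hox windows (16.7%) and in 11.6% of all windows. GGGCGG (the core of Sp1 sites) was in 10 of 24 (41.7%) and in 42.6% of all. TGATTNAT, the form of the joint Hox and TALE motif used here, was in 2 of 24 (8.33%), the windows of Hoxa2 and of the inner Hoxd11 start, and in 2.52% of all. A match is a run of letters and says nothing of a bound factor.

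**Figure D2:**
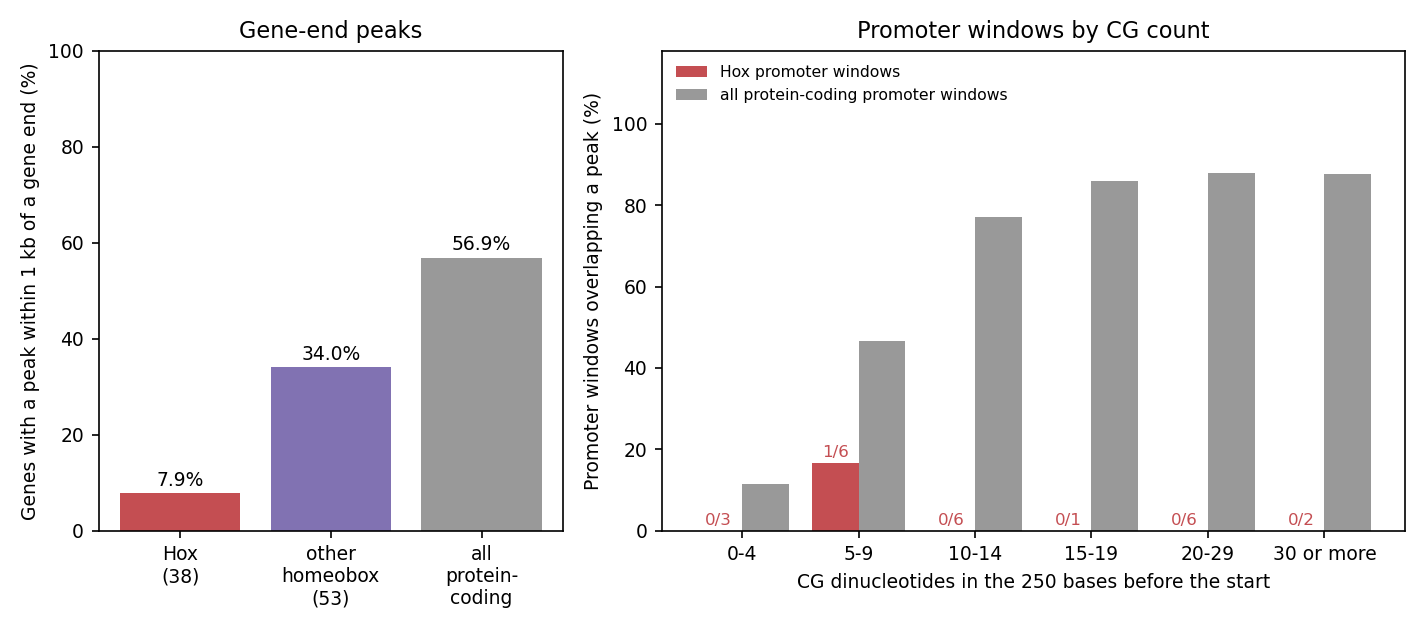
On the left, bars give the percentage of genes with a peak within 1 kb of a gene end for 38 Hox genes, 53 other homeobox genes and all protein-coding genes. On the right, bars give the percentage of promoter windows that overlap a peak by the number of CG dinucleotides in the 250 bases before the start, red for Hox (with counts) and grey for all protein-coding windows. The grey bars climb between 11.4% and 87.9%, while Hox windows stay at 0 in every class but 5 to 9, where 1 of 6 overlaps a peak.

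The clusters also hold microRNA genes, small RNAs that repress messenger RNAs through their seed, bases 2 to 8 of the mature strand. Their mature 5p sequences are shown because they fall into 2 seed families, each with copies in several clusters. Capitals mark the seed.
mmu-miR-10a-5p (HoxB): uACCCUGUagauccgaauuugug
mmu-miR-10b-5p (HoxD): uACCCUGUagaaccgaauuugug
mmu-miR-196a-5p (HoxB and HoxC): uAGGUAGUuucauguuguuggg
mmu-miR-196b-5p (HoxA): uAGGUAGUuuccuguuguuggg

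None of their 5 genes lay in a peak. The nearest peaks were 7.91 kb from the miR-196b gene in HoxA, 13.6 kb and 13.8 kb from the miR-196a genes in HoxB and HoxC, 21.4 kb from the miR-10a gene in HoxB and 23.4 kb from the miR-10b gene in HoxD. Accessibility of a gene is no measure of its RNA, and no microRNA was counted here.

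The 10 Hox peaks were weak. Their mean level over 13 clones lay between 2.62 and 7.67 CPM, with a median of 4.37 CPM, against a median of 8.29 CPM for all peaks. Their median length was 596 bp, against 708 bp for all peaks and 531 bp for peaks with a mean in the same range. The 5 HoxA peaks had a median of 764 bp. Peaks with a mean inside the Hox range made up 41.5% of all peaks, so that such levels were common in the table. All 10 fell in the lower part of the table: the lowest, at Hoxb6, was above 5.32% of all peaks and the highest, at Hoxa9, above 46.8%.

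The HoxA peaks are given from the anterior to the posterior side of the cluster. Hoxa3, which shapes the throat, thymus and parathyroid glands, had 2 peaks inside its long record. The internal peak (chr6:52176962-52177739) also overlapped the records of 5730596B20Rik and LOC115490409. Accessibility has no strand, so a peak shared by several records cannot be assigned to 1 of them. It measured 1.73, 4.66 and 9.46 CPM (lowest, median and highest clone) in T cell high clones and 0.696, 2.72 and 14.8 CPM in T cell low clones. T cell low clones thus held both the lowest value, in 2699c4, and the highest, in 6419c5, and the groups overlapped. The peak near the Hoxa3 start (chr6:52211257-52211908) also overlapped the antisense record Hoxaas3. It measured 4.97, 6.94 and 13.96 CPM in T cell high clones and 1.01, 3.73 and 10.5 CPM in T cell low clones. Clone 7160c2 was highest and 6499c3 lowest, and the T cell high median lay above the T cell low one although the groups overlapped.

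The Hoxa9 peak (chr6:52221347-52222215) was the highest of the 10. It lay 882 bp beyond the 3′ end of Hoxa9, a gene best known from blood stem cells and leukaemia, and 2774 bp upstream of the start of Hoxa7. It measured 4.35, 6.03 and 7.98 CPM in T cell high clones and 1.01, 8.15 and 18.7 CPM in T cell low clones. The T cell high clones sat close together, inside the wide range of the T cell low clones, where 6556c3 with 18.7 CPM and 2699c4 with 15.3 CPM stood above all others. The Hoxa10 peak (chr6:52240191-52240920), at the promoter printed above, measured 0.864, 3.58 and 9.03 CPM in T cell high clones and 0, 2.86 and 18.1 CPM in T cell low clones. It varied more between clones than any other Hox peak: 6419c5 had 18.1 CPM from 33 counts, while 6422c1 had 0 counts, which allows up to 1.02 CPM. The Hoxa13 peak (chr6:52270405-52271168) lay 9525 bp upstream of Hoxa13 and 2802 bp from Hottip, a non-coding RNA gene whose human counterpart helps keep the posterior HoxA genes active. It measured 3.44, 6.09 and 7.74 CPM in T cell high clones and 1.87, 3.69 and 11.6 CPM in T cell low clones. The highest clone was again 6419c5 and the groups overlapped.

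The 2 HoxB peaks had the lowest means of the 10. The Hoxb8 peak (chr11:96278839-96279097) lay 304 bp before the record of Hoxb8, which in mice acts in the trunk and in grooming behaviour. It measured 0.621, 2.27 and 4.99 CPM in T cell high clones and 1.01, 2.71 and 6.60 CPM in T cell low clones. The Hoxb6 peak (chr11:96295453-96295799), which also overlapped the antisense record Hoxb5os, measured 0.529, 3.24 and 5.16 CPM in T cell high clones and 0, 2.14 and 4.67 CPM in T cell low clones. Clone 6694c2 had 0 counts at Hoxb6, which allows up to 1.85 CPM, and at both HoxB peaks the groups overlapped.

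In HoxC, the Hoxc9 peak (chr15:102987183-102987722) lay 2739 bp from the record of Hoxc9, a gene of thoracic identity. It measured 1.995, 3.49 and 6.09 CPM in T cell high clones and 2.47, 4.08 and 7.47 CPM in T cell low clones. Its SD of log2 CPM over clones, 0.47, was the smallest of the 10. The Hoxc6 peak (chr15:102999233-102999611) lay inside the record of Hoxc6, another gene of the thoracic region. It measured 0.529, 4.57 and 5.61 CPM in T cell high clones and 0, 3.85 and 11.2 CPM in T cell low clones. Clone 6556c3 was highest at both HoxC peaks, while 2699c4 had 0 counts at Hoxc6, which allows up to 1.04 CPM. The only HoxD peak (chr2:74702263-74702630) lay 1985 bp upstream of the start of Hoxd8, a trunk gene. It measured 0.432, 2.58 and 5.16 CPM in T cell high clones and 0.68, 3.30 and 5.60 CPM in T cell low clones, and the groups overlapped there too.

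**Figure D3:**
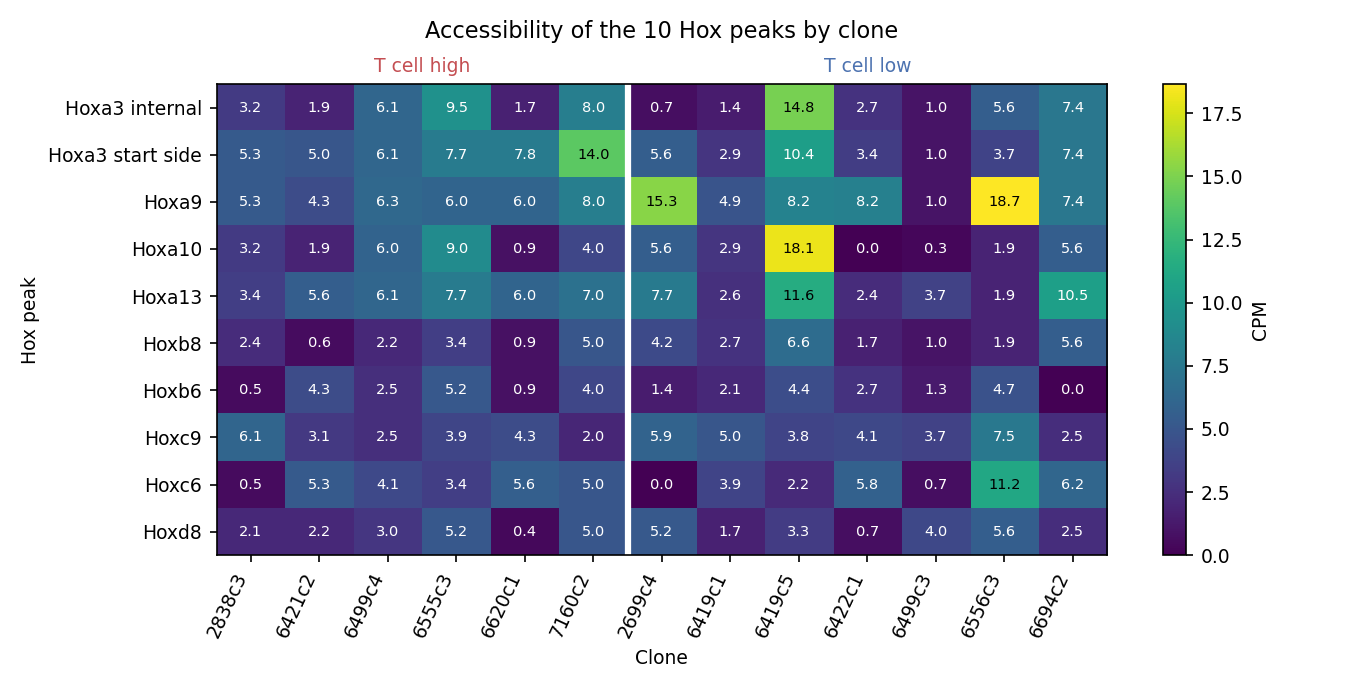
Each row is a Hox peak and each column a clone, T cell high on the left and T cell low on the right, with the CPM printed and coloured. The brightest cells are in T cell low clones: 18.7 CPM at Hoxa9 in 6556c3, 18.1 CPM at Hoxa10 and 14.8 CPM at the internal Hoxa3 peak in 6419c5, and 15.3 CPM at Hoxa9 in 2699c4.

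The study set T cell high against T cell low tumours. No Hox peak differed between them beyond the spread between clones. Of the 10 peaks 8 had enough counts to be tested with edgeR's quasi-likelihood test over all 59252 tested peaks, and the Hoxb6 and Hoxb8 peaks did not. Of those 8, 0 passed at a Benjamini-Hochberg adjusted p under 0.05, where 0 of all 59252 tested peaks (0%) passed, and 0 had an unadjusted p under 0.05, where 4046 of all tested peaks (6.83%) did. DESeq2 called 47 peaks (0.0793%) and limma-voom 0 (0%), none of them a Hox peak in either tool. At an unadjusted p under 0.05 DESeq2 had 7.79% and limma-voom 8.52% of all peaks. The groups overlapped at all 10 Hox peaks, and 0.162% of all tested peaks had groups that did not overlap. The log2 fold change, T cell high over T cell low, was above 0 at 3 Hox peaks and below 0 at 5, with a median of -0.083, against 0.013 for all tested peaks. That sign depended on the tool: with limma-voom 6 of the 8 were above 0 and the median was 0.42, or 0.49 with clones that share a number as a block. Without 2838c3 the edgeR median was 0.19, and without 6620c1 0.048.

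The Hoxa3 peak near the start had the smallest p. It averaged 7.65 ± 3.31 CPM in T cell high clones and 4.92 ± 3.18 CPM in T cell low clones (SD, n = 6 and 7), a log2 fold change of 0.62 ± 0.46 (SE) with an adjusted p of 0.835 by edgeR's quasi-likelihood test. Its 95% interval ran between 0.824-fold and 2.88-fold. limma-voom put it at 0.89, with an unadjusted p of 0.0496 and an adjusted p of 0.587. With clones that share a number as a block, limma-voom put it at 0.98 with an unadjusted p of 0.0309. No Hox peak passed an adjusted p of 0.05 in that fit. The Hoxa9 peak averaged 6.00 ± 1.20 CPM in T cell high clones and 9.09 ± 6.03 CPM in T cell low clones (SD, n = 6 and 7), with a log2 fold change of -0.58 ± 0.46 (SE) and an adjusted p of 0.851 in the same edgeR test. limma-voom put it at -0.048, and at 0.078 with clones that share a number as a block. Its interval was 0.358-fold to 1.26-fold, and the larger spread of the T cell low clones came with the high values of 6556c3 and 2699c4. The Hoxc9 peak averaged 3.64 ± 1.47 CPM in T cell high clones and 4.64 ± 1.65 CPM in T cell low clones (SD, n = 6 and 7), with a log2 fold change of -0.30 ± 0.41 (SE) and an edgeR adjusted p of 0.924. The other 5 tested peaks had log2 fold changes between -0.19 (Hoxa10) and 0.13 (internal Hoxa3), with edgeR adjusted p between 0.976 and 0.998. limma-voom gave 0.87 at Hoxa10 and 0.91 at the internal Hoxa3 peak (adjusted p of 0.773 and 0.682), and 1.06 and 1.05 with the block. Their intervals stay wide: at Hoxa10, 0.329-fold to 2.34-fold, and at Hoxc6, 0.396-fold to 2.46-fold. Differences inside these intervals cannot be told from none at this depth and number of clones, and these p-values do not show that the groups are alike.

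**Figure D4:**
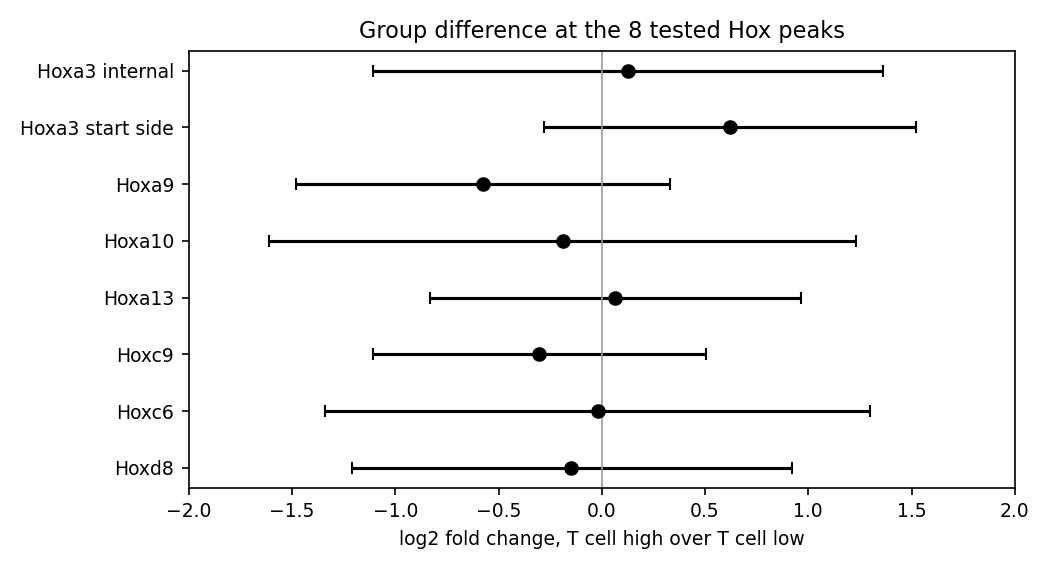
Points are log2 fold changes of the 8 tested Hox peaks, T cell high over T cell low, and bars are their 95% intervals from the edgeR fit. Every interval crosses 0, and the point farthest from 0 is the Hoxa3 peak near the start, at 0.62.

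Summing counts per gene added little to the peak tests, because each tested Hox sum rested on 1 Hox peak. Over 20827 genes, each with the peaks whose nearest gene end was its own and within 10 kb, edgeR's quasi-likelihood test called 1 gene (0.0048%) at an adjusted p under 0.05 and 1475 (7.08%) at an unadjusted p under 0.05, and none was a Hox gene. Hoxa3 had a summed log2 fold change of 0.63 ± 0.47 (SE, adjusted p of 0.816), Hoxa9 -0.56 ± 0.47 (adjusted p of 0.842) and Hoxc9 -0.27 ± 0.41 (adjusted p of 0.931). Hoxa10 and Hoxc6 were at -0.19 and -0.0080 with adjusted p of 0.978 and 0.999. Gene records of any kind took part in these sums. The internal Hoxa3 peak thus went to 5730596B20Rik, the Hoxa13 peak to Hottip and the Hoxd8 peak to Gm38462. With protein-coding records alone, which gave Hoxa3 its internal peak as well, the Hoxa3 sum was at 0.38.

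The cluster sums lay close between the groups and far apart between clones. HoxA summed to 28.8 ± 9.90 CPM in T cell high clones and 29.5 ± 18.9 CPM in T cell low clones (SD, n = 6 and 7). HoxB summed to 5.30 ± 2.95 CPM in T cell high clones and 5.75 ± 2.66 CPM in T cell low clones. HoxC summed to 7.64 ± 1.30 CPM in T cell high clones and 8.91 ± 4.72 CPM in T cell low clones, where 6556c3 reached 18.7 CPM. Each difference between group means was smaller than the SD of either group.

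HoxA, with 5 of the 10 peaks, varied widely between clones. Its sum was 20.4 CPM in 2838c3, 18.6 in 6421c2, 30.7 in 6499c4, 40.0 in 6555c3, 22.5 in 6620c1 and 40.9 in 7160c2 among T cell high clones. Among T cell low clones it was 34.8 CPM in 2699c4, 14.6 in 6419c1, 63.2 in 6419c5, 16.7 in 6422c1, 7.04 in 6499c3, 31.7 in 6556c3 and 38.3 in 6694c2. Both ends of the range were T cell low clones, and the highest was 8.98 times the lowest. The same ratio was 6.37 for HoxB, 4.28 for HoxC and 12.97 for HoxD, clusters that rest on as few as 1 count in a clone. The 95% counting interval was 52.2 to 75.9 CPM in 6419c5 and 4.36 to 10.8 CPM in 6499c3. Such intervals cover counting error only, and both mates of a read pair may have been counted, so they are too narrow.

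The order of clones was shared between HoxA peaks in part. Clone 6419c5 was among the 3 highest clones at all 5 HoxA peaks and the highest at 3, the internal Hoxa3, Hoxa10 and Hoxa13 peaks. Clone 6499c3 was among the 3 lowest at 4 and the lowest at 2, the Hoxa3 peak near the start and the Hoxa9 peak. Clone 6419c1 was also among the 3 lowest at 4, with ranks between 8 and 12. Some clones changed place between peaks: 6556c3 was highest at Hoxa9 and lowest at Hoxa13, and 2699c4 was the second highest at Hoxa9 and lowest at the internal Hoxa3 peak. The median SD of log2 CPM over clones was 0.82 for the 10 Hox peaks, 0.84 for the 28168 peaks with a mean in the same range and 0.70 for all peaks, so Hox peaks as a set varied about as much as other weak peaks.

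**Figure D5:**
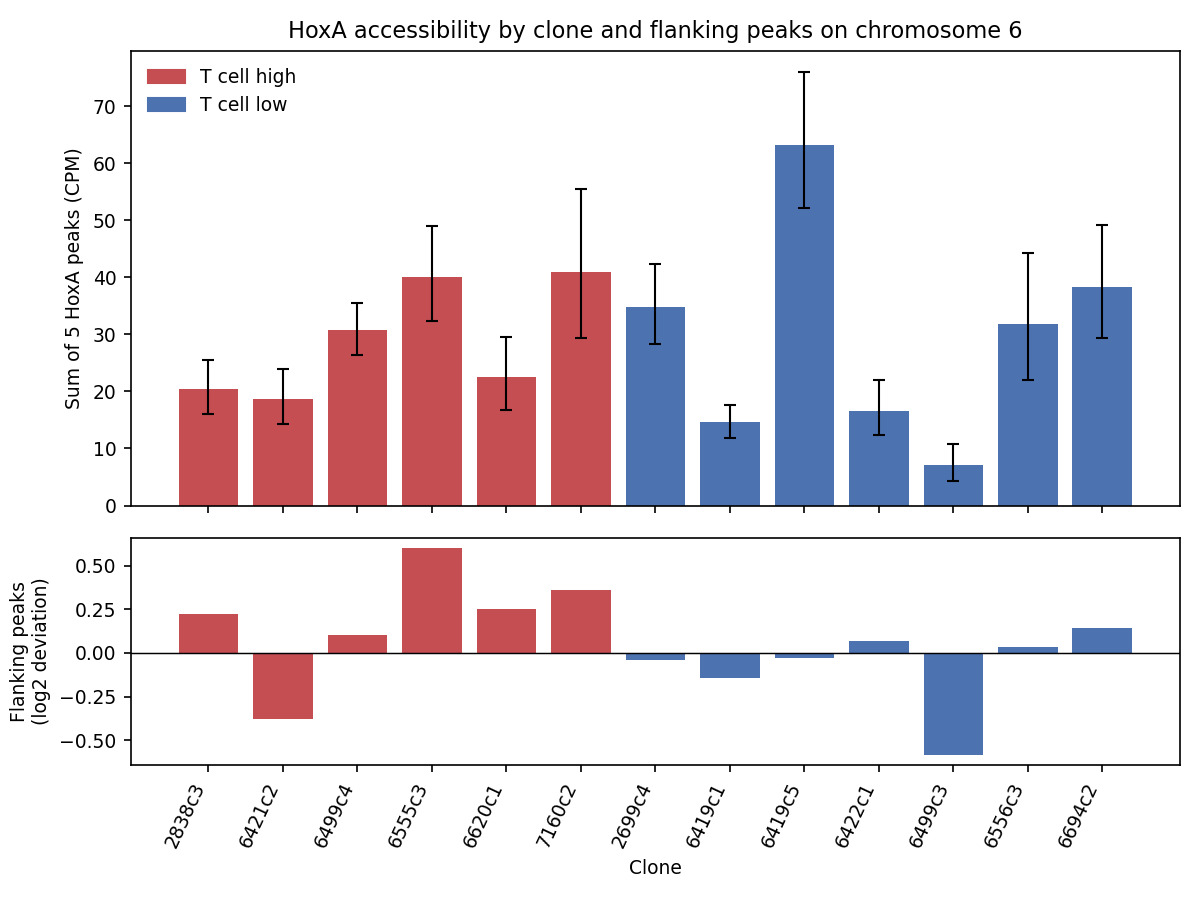
Upper bars give the summed CPM of the 5 HoxA peaks in each clone with a 95% counting interval, red for T cell high and blue for T cell low. Lower bars give the median log2 deviation of 160 flanking peaks on chromosome 6 in the same clone. The highest HoxA sum, 63.2 CPM in 6419c5, stands over a flank near 0, while the lowest, 7.04 CPM in 6499c3, stands over the lowest flank.

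Other measures moved with HoxA in some clones. The flank was the 160 tested peaks within 2 Mb of HoxA but more than 10 kb from any Hox gene record. Their median log2 deviation lay between -0.59 (6499c3) and 0.60 (6555c3) per clone, and copy number and accessibility cannot be told apart there. With the flank subtracted, 6419c5 remained the highest clone, 1.30 (log2) above the mean of the clones against 1.27 before, and 6499c3 the lowest, at -1.15 against -1.73 before. Clone 6555c3 moved to rank 7 after the subtraction, against rank 3 before. Depth moved with HoxA in part: the 4 shallowest libraries had sums of 31.7 (6556c3), 38.3 (6694c2), 40.9 (7160c2) and 63.2 CPM (6419c5), and the deepest library, 6419c1, had 14.6 CPM. Other libraries did not follow depth: the next deepest, 6499c4 with 5936823 counts, had 30.7 CPM, and 6499c3, with 3283310 counts, had the lowest sum. The share of counts in the 1000 highest peaks was smallest in 6419c5, at 9.35%, and largest in 6499c3, at 12.3%. The median CPM of all peaks with a mean in the Hox range was 3.69 in 6499c3 and between 3.73 and 5.60 in the other clones. The part of depth and background in the HoxA differences was not tested.

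Clones that share a number in their name differed more at HoxA than most pairs of clones. The HoxA sum of 6419c5 was 4.34 times that of 6419c1, both T cell low, with all 5 HoxA peaks higher in 6419c5. The sum of T cell high clone 6499c4 was 4.36 times that of T cell low clone 6499c3, again at all 5 peaks. The internal Hoxa3 peak was at 14.8 CPM (27 counts) in 6419c5 against 1.43 CPM (10 counts) in 6419c1, and at 6.14 CPM (37 counts) in 6499c4 against 1.01 CPM (3 counts) in 6499c3. Hoxa10 was at 18.1 CPM (33 counts) in 6419c5 against 2.86 CPM (20 counts) in 6419c1, and 5.97 CPM (36 counts) in 6499c4 against 0.335 CPM (1 count) in 6499c3. The mean absolute log2 difference over HoxA peaks was 1.91 between 6419c5 and 6419c1 and 1.90 between 6499c4 and 6499c3, ranks 73 and 72 of 78 pairs of clones counted from the most alike, where the median pair had 1.0. Over all peaks the same pairs were among the closer ones, at 0.67 (rank 4) and 0.77 (rank 21), where the median pair had 0.84. The flanking peaks differed by 0.11 (log2) between 6419c5 and 6419c1 and by 0.69 between 6499c4 and 6499c3. The fibroblast marker sum was 50.6 CPM in 6419c5 and 50.4 CPM in 6419c1, and 46.3 CPM in 6499c4 and 30.2 CPM in 6499c3, and its part in the difference was not tested. The endothelial list, read at the Sox17 peak alone, was 15.9 CPM in 6419c5 and 2.14 CPM in 6419c1, and 29.02 CPM in 6499c4 and 2.68 CPM in 6499c3, so it moved with HoxA in both pairs. Over all clones its highest value, 50.9 CPM, was in 6421c2 with a HoxA sum of 18.6 CPM, and it was 0 in 7160c2 with a HoxA sum of 40.9 CPM. Its part was not tested. With 2 such pairs, noticed in these data, this is a description with no test.

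Most Polycomb, Trithorax and TALE cofactor genes had a peak at a gene end, while fewer of the upstream activators did, and none of these genes passed the test between the groups. These lists were read at the gene-end peak with the highest mean count. Of 20 Polycomb genes 18 were tested: 7 had a log2 fold change above 0, 11 below 0 and 0 passed, with a median of -0.016. Of 16 Trithorax genes 14 were tested, with 6 above 0, 8 below 0 and 0 called. Ezh2, the methyltransferase of Polycomb complex 2, averaged 99.1 CPM in T cell high clones and 92.8 CPM in T cell low clones, and its partner Eed 63.2 CPM in T cell high clones and 60.9 CPM in T cell low clones. The smallest p in these lists was that of Ash1l, a histone methyltransferase of the Trithorax group, with 49.2 ± 10.9 CPM in T cell high clones and 70.3 ± 15.5 CPM in T cell low clones (SD, n = 6 and 7). Its log2 fold change was -0.51 ± 0.19 (SE), and its edgeR adjusted p was 0.664. Kdm6a, which removes the Polycomb mark, was at -0.55 (adjusted p of 0.747), and Bmi1 and Jarid2, members of Polycomb complexes 1 and 2, were at -0.28 and -0.23 (adjusted p of 0.836 for both).

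Of the 9 TALE cofactors 7 were tested and 0 called. Meis1, which pairs with posterior Hox proteins, averaged 9.69 ± 9.20 CPM in T cell high clones and 19.3 ± 14.6 CPM in T cell low clones (SD, n = 6 and 7), with 0.663 to 22.4 CPM in T cell high clones and 0.68 to 39.2 CPM in T cell low clones. Its log2 fold change was -1.0 ± 0.67 (SE) and its edgeR adjusted p 0.817. Of 13 upstream activators 5 had a gene-end peak, 4 were tested and 0 called. Cdx2, an activator of posterior Hox genes and of intestinal identity, averaged 44.0 ± 15.5 CPM in T cell high clones and 32.5 ± 5.10 CPM in T cell low clones (SD, n = 6 and 7), with an edgeR adjusted p of 0.74. The retinoic acid receptor Rarg was at -0.28 (adjusted p of 0.855). Of the boundary and loop factors 7 were tested, 1 above 0 and 6 below, and 0 called. The cohesin subunit Stag2 was at -0.58 and Yy1 at -0.44, both with an adjusted p of 0.791.

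Among the neighbours of the clusters, 18 were tested, with 8 above 0, 10 below 0 and 0 called. Hibadh, an enzyme gene beyond the posterior end of HoxA, averaged 80.3 ± 22.3 CPM in T cell high clones and 60.0 ± 11.9 CPM in T cell low clones (SD, n = 6 and 7), with an edgeR adjusted p of 0.727. Nfe2, near HoxC, was at -0.40 (adjusted p of 0.854). Of 17 other homeobox genes tested, 7 were above 0, 10 below 0 and 0 called, with a median of -0.035. The smallest p there was that of Dlx4, with 9.23 ± 3.55 CPM in T cell high clones and 18.3 ± 6.57 CPM in T cell low clones (SD, n = 6 and 7), a log2 fold change of -0.92 ± 0.32 (SE) and an edgeR adjusted p of 0.619. Irx5 was at 0.72 (adjusted p of 0.711). Among the marker lists 0 genes were called either, although the epithelial markers leaned one way: 8 of 10 were above 0, led by Cldn3 with 38.2 ± 30.1 CPM in T cell high clones and 6.18 ± 4.40 CPM in T cell low clones (SD, n = 6 and 7) and an edgeR adjusted p of 0.30. Epcam was at 1.34 (adjusted p of 0.581). In the main edgeR fit Cldn3 had a log2 fold change of 2.65, while no tested Hox peak lay farther from 0 than 0.62. limma-voom put the internal Hoxa3 peak at 0.91 and, with clones that share a number as a block, Hoxa10 at 1.06. Of 5 leukocyte markers tested 3 were above 0, with Cd53 at -0.55 and Coro1a at -0.52 (adjusted p of 0.767 and 0.882). The fibroblast markers Twist2 and Col1a1 were at -0.40 and -0.022 (adjusted p of 0.939 and 0.992), the endothelial marker Sox17 at 1.28 (adjusted p of 0.796) and the skin markers Ivl and Lor at -0.81 and -0.22 (adjusted p of 0.736 and 0.93).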

How the data were processed

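ATAC-seq libraries of 13 clones, 1 library each, were compared. The authors deposited raw counts, whole numbers of reads in each merged peak, and per the file headers these came from featureCounts 1.5.3 with neither read pairs nor strand set as an option. Per the submitters' processing notes, reads were placed on mm10 and DESeq2 was among the tools. Which aligner, peak caller and merging rule were used, and whether reads were shifted for the transposase, is not given in the sources used here. Because peaks were merged over samples, a peak may be listed although a clone has no reads there, and because single reads were counted, both mates of a pair may be counted in a peak.

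From these counts CPM was computed on TMM-scaled library sizes. Group tests used edgeR 4.0.16 (quasi-likelihood F-test after filterByExpr, R 4.3.3), T cell high over T cell low, with Benjamini-Hochberg adjustment over all peaks or all gene sums and a threshold of 0.05. The log2 CPM values used a prior count of 2. DESeq2 1.42.0, limma 3.58.1 (voom), other scalings, no filter, regional offsets and the omission of each library were alternatives. The edgeR peak test was checked on counts simulated from all tested peaks, not from weak peaks alone. It called 10% of 50 peaks with a 2-fold difference, 72% of 50 with 4-fold and 98% of 50 with 8-fold. Of 55896 simulated peaks with no difference it called 5. Columns were matched to samples by clone name, and 0 columns of per-sample values were left unmatched. The gene table gives record ends without exons or strand, so exonic or intronic position is not stated. Counting intervals are exact Poisson intervals at 95%.

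Named by rule were, per cluster, the peaks with the highest level, the largest spread and the smallest p, the Hox genes whose sums had the smallest p and, per list, the 2 genes with the smallest p. A gene that this rule names is not reported here. Other genes named as landmarks or for their level were chosen after their values were seen. The members, the 12 gene lists and the tests were chosen with earlier results of these data known. No pair of columns held the same values, and replicate numbers only follow accession order.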

Additional observations from a re-analysis of the deposited data

Results flagged for a closer look

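The Hoxc6 peak was 0.529 CPM (2 counts) in T cell high clone 2838c3, far below the other 5 T cell high clones, which lay between 3.44 and 5.61 CPM. On the scale of the flagging rule, which was not CPM, the gap to the nearest of them was 0.744 of the group's range. It was the only such value among 28 groups of values examined, and chance sets apart about 1 in 20 groups of this kind. T cell low clones 2699c4, with 0 counts, and 6499c3, with 0.67 CPM, were as low at the same peak.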

How the results depend on the processing

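No Hox peak or Hox gene sum passed an adjusted p of 0.05 under any alternative run, so the absence of a call did not depend on the processing. Counts over all peaks moved more: DESeq2 called 47 peaks and 16 gene sums, the regional offsets 0 gene sums and protein-coding records alone, chosen after seeing the data, 2 gene sums. With 1 library left out, 0 to 42 peaks were called (42 without 2838c3) and 0 to 15 gene sums. Counting only peaks that overlap a Hox record left 5 Hox peaks in place of 10. Some directions turned. With regional offsets the log2 fold change was 0.16 at Hoxc6 (gene sum 0.17), -0.15 at the internal Hoxa3 peak and -0.16 at Hoxa13. With limma-voom it was 0.41 at Hoxc6, 0.028 at Hoxd8 and 0.87 at Hoxa10. With clones that share a number as a block it was 0.50 at Hoxc6, 0.011 at Hoxd8, 0.078 at Hoxa9 and 1.06 at Hoxa10, and the internal Hoxa3 peak, the same in sign, was at 0.91 and, with the block, 1.05. The cause was not tested. With 1 library left out, the range was -0.26 to 0.35 at Hoxc6 (gene sum -0.25 to 0.36), -0.41 to 0.058 at Hoxd8 (tested in 7 of 13 omissions), -0.17 to 0.31 at the internal Hoxa3 peak (tested in 10), -0.56 to 0.0040 at Hoxa10 (tested in 10, gene sum -0.55 to 0.0058) and -0.094 to 0.33 at Hoxa13. In the same omissions the Hoxa3 peak near the start kept a value above 0 (0.40 to 0.92), and the Hoxa9 (-0.80 to -0.33) and Hoxc9 (-0.53 to -0.19) peaks values below 0. With 1 library left out, group differences of the cluster sums ranged between -0.10 and 0.40 (log2) for HoxA, -0.31 and 0.059 for HoxB, -0.22 and 0.092 for HoxC and -0.33 and 0.13 for HoxD. From peaks overlapping a Hox record they were 0.50, 0.21 and 0.19 for HoxA, HoxB and HoxC, and 0.43 for HoxA as a median over peaks. No paired analysis was possible because the replicate numbers only follow accession order. Counts of 0 to 44 reads per peak and clone limit all of these values.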
